A study of Mus musculus with 13 samples.

Results

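The genes described here are *Hif1a*, which encodes the oxygen-regulated subunit of hypoxia-inducible factor (HIF), and 9 genes that HIF is known to activate, namely *Egln1*, *Egln3*, *Slc2a1*, *Pdk1*, *Bnip3*, *Vegfa*, *Ndrg1*, *P4ha1* and *Ero1l*. They were taken by name and not by a filter on their values, but earlier results of these data were known at that time. All 10 were among the 13222 genes of the expression table. The question was whether the lower expression of glycolysis genes seen with doxorubicin (DOX) extended to other HIF targets. With DOX, 7 of the 10 genes were lower than in untreated cells, by 2.14-fold to 6.15-fold, and the same 7 were lower again in other libraries that had received IL-17A as well. *Bnip3* fell most. *Hif1a* itself, *Egln1* and *Slc2a1* did not pass the test in either setting.

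HIF is a pair of proteins, an alpha subunit whose amount depends on oxygen and a beta subunit (*Arnt*) that is always present. When oxygen is available, prolyl hydroxylases of the EGLN family modify the alpha subunit, and the VHL complex then marks it for destruction, so that HIF is controlled mainly as a protein and the *Hif1a* transcript need not follow its activity. When oxygen is scarce, the pair binds short DNA motifs called hypoxia response elements and turns on genes for glucose uptake and glycolysis, blood vessel growth, collagen processing and the removal of mitochondria. Its targets *Egln1* and *Egln3* encode the hydroxylases themselves. Many tumour cells keep some of these genes on in ordinary culture.

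RNA was from cultured 4T1-Thy1.1 cells, a mammary carcinoma line of BALB/c mice that carries a Thy1.1 transgene. They were grown for 48 hours, in DMEM/F12 with serum by the labels, while the paper's methods give RPMI for 4T1 cells. Cells were left untreated (control, n = 3), or received 200 ng/mL DOX (n = 4), 200 ng/mL DOX with 25 ng/mL recombinant mouse IL-17A (DOX+IL-17A, n = 3) or IL-17A at 25 ng/mL by itself (IL-17A, n = 3). DOX is an anthracycline that damages DNA, and IL-17A is an inflammatory cytokine. All groups are cultures of the same cell line. The paper's methods speak in general of 3 or more biological replicates. They do not describe whether libraries of a group came from separate cultures, so p-values measure the spread between libraries only. Libraries are named by their group and the replicate number of the labels.

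Reads at the 3′ ends of transcripts were counted per gene, with 4445592 to 16930600 reads per library on listed genes, and values are given after TMM normalization, which scales each library for its depth and composition. The limit of detection was set at 3 reads, or 0.183 to 0.613 normalized units by library, and covers counting error only. Libraries with DOX separated from those without it on the first principal component (40.1% of the variance). Control replicate 1 stood apart from the others on the second (20.5%, score 74.7 against -42.9 to 23.4). All 5 epithelial markers were present. Their summed values were 1384 to 1555 in controls, 638 to 729 with DOX, 527 to 679.5 with DOX+IL-17A and 1219 to 1487 with IL-17A. The sum was thus lower with DOX, as most of the HIF targets were. *Krt8*, *Krt18*, *Krt19* and *Epcam* had lower means with DOX in both settings. *Cdh1* was not lower on IL-17A, with means of 13.9 in DOX+IL-17A and 13.2 in IL-17A libraries. The part of these markers in the results was not tested. Of the 5 skeletal muscle markers, all were listed, and their sum was highest in DOX replicate 1 (189.8) and, among controls, in control replicate 1 (28.1), and at most 9.76 in libraries with IL-17A. The 3 of 5 red blood cell markers listed reached 66.5 and 14.4 in the same libraries and at most 3.89 in those with IL-17A. None of 4 endothelial and 2 of 5 immune markers were listed (immune sums of 0.314 to 3.87), and the 4 fibroblast markers summed to between 23.8 and 97.8. Fewer cells of a type and less RNA per cell cannot be told apart in such bulk samples.

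Promoter windows of 5 HIF targets that fell are shown because they carry the motif to which HIF binds. Each runs from 250 bases before to 50 bases after an annotated start (RefSeq, mouse build GRCm38.p6, whose coordinates are those of mm10), is read along the strand of the gene, and has the hypoxia response element cores ACGTG and GCGTG, on either strand (CACGT and CACGC on the other), in capitals; a CACGTG palindrome counts as 2 cores. They are *Bnip3* (chr7:138909457-138909756, minus strand), *Pdk1* (chr2:71872974-71873273, plus strand), *P4ha1* (chr10:59323046-59323345, plus strand), *Ero1l* (chr14:45318523-45318822, minus strand, named *Ero1a* by RefSeq) and *Egln3* (chr12:54203825-54204124, minus strand).
Bnip3: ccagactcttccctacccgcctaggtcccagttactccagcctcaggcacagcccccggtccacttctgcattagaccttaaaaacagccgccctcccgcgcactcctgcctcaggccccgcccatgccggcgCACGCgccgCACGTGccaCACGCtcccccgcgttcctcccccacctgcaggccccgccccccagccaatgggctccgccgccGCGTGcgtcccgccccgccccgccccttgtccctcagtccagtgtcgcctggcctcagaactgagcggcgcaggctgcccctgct
Pdk1: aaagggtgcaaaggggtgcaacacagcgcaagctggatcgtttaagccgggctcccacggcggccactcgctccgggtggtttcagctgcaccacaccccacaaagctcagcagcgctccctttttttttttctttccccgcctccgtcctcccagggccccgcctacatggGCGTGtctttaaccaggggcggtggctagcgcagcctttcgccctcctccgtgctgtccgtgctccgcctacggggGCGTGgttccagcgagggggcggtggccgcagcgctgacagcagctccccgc
P4ha1: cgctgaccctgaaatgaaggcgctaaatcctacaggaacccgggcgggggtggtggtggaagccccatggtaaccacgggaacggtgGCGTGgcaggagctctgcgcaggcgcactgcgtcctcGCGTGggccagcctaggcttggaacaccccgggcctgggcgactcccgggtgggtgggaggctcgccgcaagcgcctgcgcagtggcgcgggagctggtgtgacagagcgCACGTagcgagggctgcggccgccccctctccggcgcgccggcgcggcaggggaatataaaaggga
Ero1l: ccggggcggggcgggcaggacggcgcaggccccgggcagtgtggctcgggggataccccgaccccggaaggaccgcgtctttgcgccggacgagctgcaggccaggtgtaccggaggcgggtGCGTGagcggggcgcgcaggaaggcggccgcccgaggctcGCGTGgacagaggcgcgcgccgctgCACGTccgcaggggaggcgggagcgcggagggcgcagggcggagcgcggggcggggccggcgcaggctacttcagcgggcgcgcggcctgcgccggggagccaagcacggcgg
Egln3: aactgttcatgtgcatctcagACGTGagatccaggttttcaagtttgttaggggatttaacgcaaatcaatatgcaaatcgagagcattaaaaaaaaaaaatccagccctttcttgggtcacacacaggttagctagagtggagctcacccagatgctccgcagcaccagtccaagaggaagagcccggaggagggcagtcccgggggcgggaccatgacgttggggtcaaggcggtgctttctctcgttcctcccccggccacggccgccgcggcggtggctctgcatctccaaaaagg

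The *Bnip3* window held 5 cores, whose first bases lay at -117 to -35 from the start, while that of *Egln3* held 1, at -229. *P4ha1* and *Ero1l* held 3 each, and the first *Pdk1* window held 2. Windows were found for 9 of the 10 genes (11 windows, as *Vegfa* and *Pdk1* have 2 each), and *Ndrg1* had no entry. Each of the 9 genes had a core in at least 1 window, and 9 of 11 windows (81.8%) held at least 1, against 43.8% of all 32851 windows and 49.3% of the 21263 windows of protein-coding genes. At least 2 cores were found in 8 of the 11 windows (72.7%) and in 24.7% of protein-coding windows. Cores were also common in the other gene lists described below. At least 1 was held by 7 of 10 windows of HIF regulators, 37 of 46 of other HIF targets and 20 of 26 of glycolysis genes. At least 2 were held by 5, 26 and 15 of these windows. Of the regulators, 0 were called in either DOX comparison, though 7 of their 10 windows held a core. Whether cores and falls go together was not tested. Among the 10 genes, the windows of those that did not pass the test also held cores (*Hif1a* 3, *Egln1* 2 and *Slc2a1* 2). The window at the first *Vegfa* start held 0. The share of G and C in the 11 windows ran from 40.3% to 86.0%, and windows were not matched for it. A match is a run of letters and not a bound site.

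**Figure D1:**
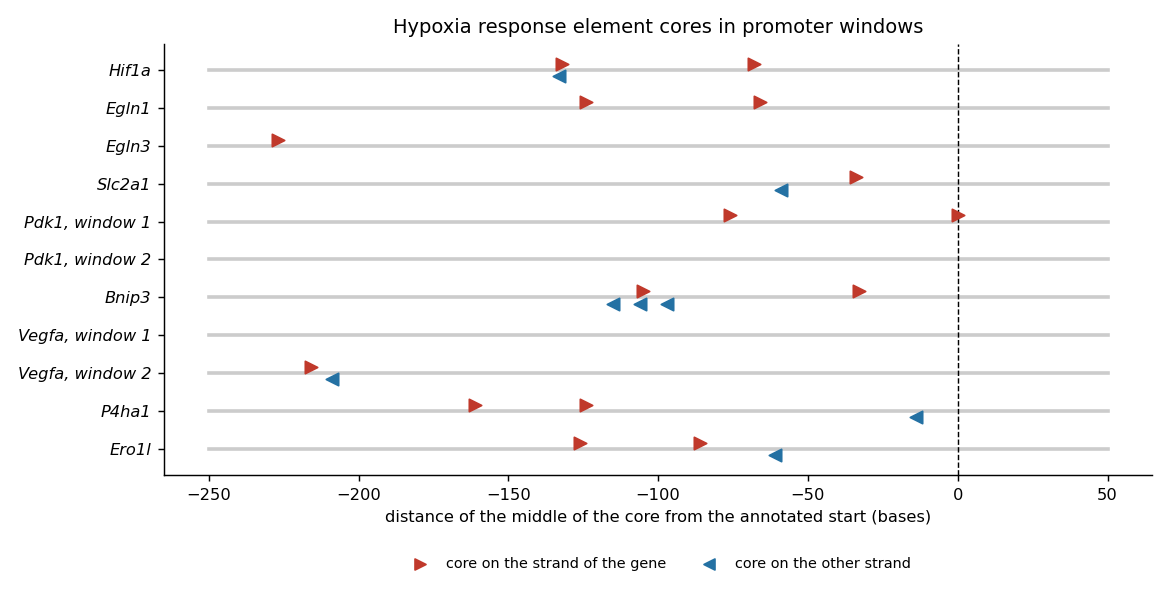
Positions of hypoxia response element cores in the RefSeq promoter windows of 9 of the 10 genes. The x axis is the distance in bases of the middle of each core from the annotated start (dashed line), each grey line is a window, red triangles are cores on the strand of the gene and blue triangles cores on the other strand; *Bnip3* has 5 cores and 2 windows have none.

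Differential expression was tested with limma on log2(value + 1) over 12319 genes, and calls required more than 2-fold change with an adjusted p under 0.05. Fold changes are on that log2 scale, with their standard errors (SE). In DOX against control 7 of 10 genes fell and 0 rose, where 6.18% of all tested genes fell and 9.15% rose. In DOX+IL-17A against IL-17A, which shares no library with the first comparison, 7 of 10 fell and 0 rose, where 4.92% of tested genes fell and 4.92% rose. The 7 were the same genes in both. Every library with DOX was below every library without it for 6 of the 10 genes in the first comparison and 8 in the second, beside 15.2% and 15.5% of all tested genes. The median log2 fold change of the 10 genes was -1.33 and -1.54, against 0.09 and 0.02 for all tested genes. Without control replicate 1 and DOX replicate 1 together, 8 of the 9 genes still tested fell in either comparison, *Egln1* joining the 7. *Slc2a1* no longer passed the filter on low values. Of the 12581 genes tested in that fit, 722 fell in the first comparison and 755 in the second, where the main fit had 761 and 606 of 12319.

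**Figure D2:**
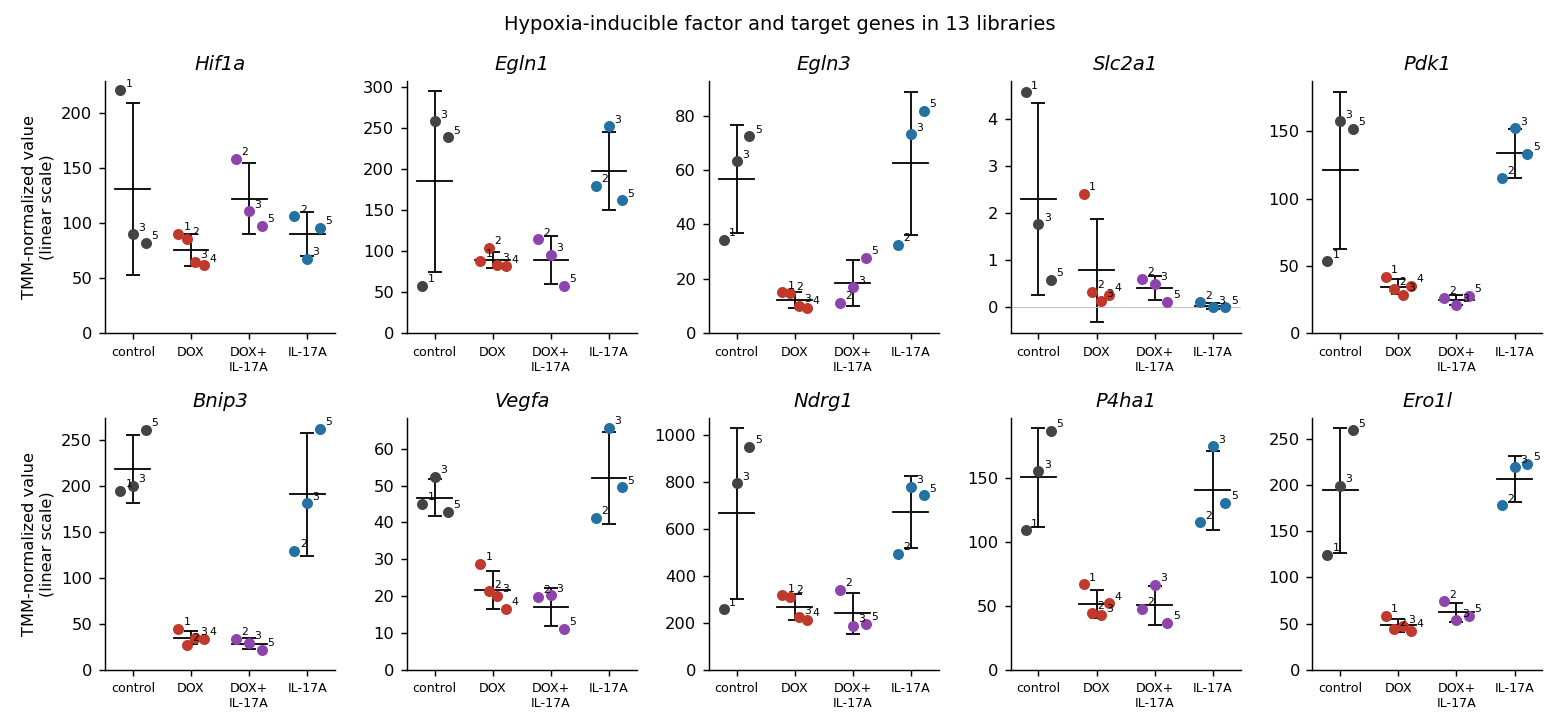
TMM-normalized values (y axis, linear scale) of each gene in the 13 libraries, by group (x axis). Points are libraries marked with their replicate number, horizontal lines are group means and bars 1 SD; the DOX and DOX+IL-17A libraries lie below all control and IL-17A libraries for *Bnip3*, *Egln3*, *Pdk1*, *Vegfa*, *P4ha1* and *Ero1l*.

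*Hif1a* (chr12:73901375-73947530, plus strand, by GENCODE on GRCm38, as for all genes below) encodes the alpha subunit that oxygen controls. Its normalized values were 221, 89.8 and 82 in control replicates 1, 3 and 5, 90.1, 85.4, 64.9 and 61.4 in DOX replicates 1 to 4, 158, 111 and 97.3 in DOX+IL-17A replicates 2, 3 and 5, and 106, 67.6 and 95.6 in IL-17A replicates 2, 3 and 5. Control replicate 1 was the highest of all 13, and the other 2 controls lay within the range of the DOX libraries. The log2 difference was -0.65 ± 0.31 in DOX against control (adjusted p = 0.139, 95% interval -1.31 to 0.0029) and 0.43 ± 0.33 in DOX+IL-17A against IL-17A (adjusted p = 0.422, interval -0.27 to 1.14). Without control replicate 1 the first was -0.20 (adjusted p = 0.587). An antisense gene (*Gm15283*) and a coding gene on the same strand (*Gm49321*) overlap the last 1000 bases of *Hif1a*, and as the sources used here do not give the strand setting of the counting, its value is uncertain to that extent.

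*Egln3* (chr12:54178981-54203860, minus strand) encodes a prolyl hydroxylase that acts on HIF alpha subunits and is itself induced by HIF. Its values were 34.3, 63.3 and 72.5 in controls, 15, 14.7, 10.1 and 9.21 with DOX, 11, 16.9 and 27.7 in DOX+IL-17A libraries and 32.4, 73.3 and 81.8 with IL-17A, in the same order of replicates. No library with DOX reached the lowest library without it. It fell by 4.25-fold in DOX against control (log2 -2.09 ± 0.37, adjusted p = 0.00146) and by 3.22-fold in DOX+IL-17A against IL-17A (log2 -1.69 ± 0.40, adjusted p = 0.0134). The second call was lost without DOX+IL-17A replicate 2, at -1.38 (adjusted p = 0.0628), without IL-17A replicate 3, at -1.52 (adjusted p = 0.063), and without IL-17A replicate 5, at -1.44 (adjusted p = 0.0615).

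*Egln1* (chr8:124908587-124949324, minus strand) encodes the hydroxylase held to be the main oxygen sensor of the pathway. Its values were 57.9, 258 and 239 in controls, 88, 104, 83.3 and 81.6 with DOX, 114, 95.5 and 57.6 in DOX+IL-17A libraries and 179.7, 252 and 162 with IL-17A. Control replicate 1 was below every DOX library, and the other 2 controls were more than 2-fold above each of them. The log2 difference was -0.78 ± 0.40 in DOX against control (adjusted p = 0.174) and -1.17 ± 0.43 in DOX+IL-17A against IL-17A (adjusted p = 0.0826), where the groups did not overlap. Neither passed the test. Both did once control replicate 1 was left out, at -1.47 (adjusted p = 0.000609) and -1.17 (adjusted p = 0.00228). The second comparison holds no control library, so its fold change stayed as it was, while the shared estimate of the spread and the set of genes tested (12795 in place of 12319) both changed. With the replicate number as a block, *Egln1* was also called in the second comparison (adjusted p = 0.0486).

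*Bnip3* (chr7:138890836-138909519, minus strand) encodes a mitochondrial outer membrane protein that marks mitochondria for removal. Its values were 194, 200.3 and 261 in controls, 44.7, 27.3, 34.1 and 33.4 with DOX, 33.3, 29.3 and 22 in DOX+IL-17A libraries and 129, 181 and 262 with IL-17A. The highest library with DOX was far below the lowest without it. The means were 219 ± 36.9 (SD, n = 3) in controls and 34.9 ± 7.26 (SD, n = 4) with DOX. The fall was 6.15-fold in DOX against control (log2 -2.62 ± 0.25, adjusted p = 1.25e-05), the log2 fold change ranking 29 from the lowest among the 12319 genes, and 6.39-fold in DOX+IL-17A against IL-17A (log2 -2.68 ± 0.27, adjusted p = 6.09e-05), ranking 18. An antisense gene (*Gm45507*) overlaps the last 1000 bases.

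*Pdk1* (chr2:71873224-71903858, plus strand) encodes a pyruvate dehydrogenase kinase, which inhibits pyruvate dehydrogenase. It read 53.5, 157 and 152 in controls, 41.8, 32.7, 28.2 and 35.2 with DOX, 26, 20.7 and 27.7 in DOX+IL-17A libraries and 115, 152 and 133 with IL-17A. Control replicate 1 was again the lowest library without DOX, far below the other controls yet above every library with DOX. *Pdk1* fell by 3.12-fold in DOX against control (log2 -1.64 ± 0.31, adjusted p = 0.00207) and by 5.22-fold in DOX+IL-17A against IL-17A (log2 -2.39 ± 0.33, adjusted p = 0.000655). Without control replicate 1 the first was -2.15 (adjusted p = 6.56e-06).

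*Slc2a1* (chr4:119108711-119137983, plus strand) encodes the glucose transporter GLUT1. It was hardly detected, with 27, 29 and 5 reads in controls, 30, 3, 1 and 3 with DOX, 3, 5 and 2 in DOX+IL-17A libraries and 1, 0 and 0 with IL-17A. The IL-17A libraries were at or below 1 read, and 3 of the 4 DOX libraries were at the 3 read limit or under it, so that no fold is given. DOX against control gave adjusted p = 0.182 and DOX+IL-17A against IL-17A adjusted p = 0.608. Libraries of 1 group differed widely, from 5 to 29 reads in controls and from 1 to 30 with DOX. An antisense gene (*Gm12868*) overlaps its last 1000 bases.

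*Vegfa* (chr17:46016993-46032369, minus strand) encodes the growth factor that drives the sprouting of blood vessels. Its values were 45, 52.4 and 42.9 in controls, 28.8, 21.3, 20.1 and 16.5 with DOX, 19.8, 20.3 and 11 in DOX+IL-17A libraries and 41.2, 65.7 and 49.6 with IL-17A. The 3 controls were close to each other, control replicate 1 included, and every library with DOX was lower. *Vegfa* fell by 2.14-fold (log2 -1.09 ± 0.27, adjusted p = 0.00984) and, on IL-17A, by 2.99-fold (log2 -1.58 ± 0.29, adjusted p = 0.00313). Without DOX replicate 4 the first was -0.98 (adjusted p = 0.0348), just short of 2-fold, and scaling by library size alone gave -0.92 (adjusted p = 0.0308).

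*Ndrg1* (chr15:66929318-66969640, minus strand) encodes a stress-responsive cytoplasmic protein much used as a marker of hypoxia in tumours. It read 257, 796 and 950.4 in controls, 318, 311, 223 and 214 with DOX, 342, 187 and 196 in DOX+IL-17A libraries and 495, 780.3 and 744 with IL-17A. Control replicate 1 lay among the DOX libraries, so that the 2 groups overlapped; DOX+IL-17A and IL-17A did not. *Ndrg1* fell by 2.20-fold in DOX against control (log2 -1.14 ± 0.37, adjusted p = 0.0377) and by 2.84-fold in DOX+IL-17A against IL-17A (log2 -1.50 ± 0.39, adjusted p = 0.0208), the highest adjusted p of the 7 in each. An antisense gene (*Gm17035*) overlaps its last 1000 bases.

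The *Ndrg1* calls were near the thresholds and were lost when any of several single libraries was left out. The first comparison gave, without control replicate 1, -1.73 (adjusted p = 0.000273). It was lost without control replicate 3, at -0.91 (adjusted p = 0.112), control replicate 5, at -0.78 (adjusted p = 0.176), or DOX replicates 2, 3 or 4, at -1.22 (adjusted p = 0.0533), -1.06 (adjusted p = 0.0925) and -1.04 (adjusted p = 0.0946). The second was lost without DOX+IL-17A replicates 3 or 5, at -1.35 (adjusted p = 0.0849) and -1.38 (adjusted p = 0.0646), or IL-17A replicates 3 or 5, at -1.38 (adjusted p = 0.0833) and -1.42 (adjusted p = 0.0689). Its direction was kept in all of these. Scaling by library size alone gave -0.96 (adjusted p = 0.0825) in the first, and a fit of the 2 groups alone -1.14 (adjusted p = 0.073).

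*P4ha1* (chr10:59323296-59373304, plus strand) encodes the catalytic subunit of prolyl 4-hydroxylase, which collagen needs in order to fold. Its values were 109, 155 and 187 in controls, 66.8, 44.7, 42.6 and 52 with DOX, 47.9, 66.2 and 36.6 in DOX+IL-17A libraries and 115, 175 and 130.4 with IL-17A. Libraries with and without DOX did not overlap. *P4ha1* fell by 2.86-fold (log2 -1.51 ± 0.25, adjusted p = 0.000956) and, on IL-17A, by 2.79-fold (log2 -1.48 ± 0.27, adjusted p = 0.00329).

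*Ero1l* (chr14:45283087-45318771, minus strand) encodes an oxidase that forms disulfide bonds in the endoplasmic reticulum. It read 124, 199 and 259.6 in controls, 58.8, 43.8, 47.3 and 42.1 with DOX, 74.2, 53.7 and 58.4 in DOX+IL-17A libraries and 178, 219.9 and 223 with IL-17A. The highest library with DOX was below the lowest without it. *Ero1l* fell by 3.85-fold (log2 -1.94 ± 0.24, adjusted p = 9.03e-05) and, on IL-17A, by 3.31-fold (log2 -1.73 ± 0.25, adjusted p = 0.000862). *Bnip3*, *Ero1l*, *Pdk1* and *P4ha1* were called in both comparisons in all 13 fits that left out 1 library each.

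**Figure D3:**
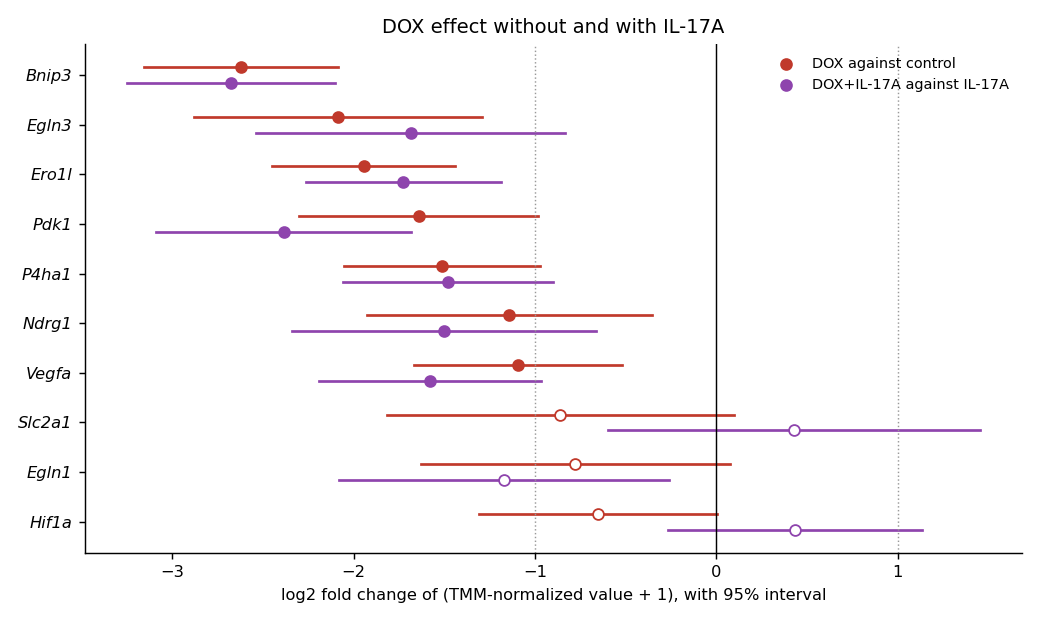
Log2 fold change of each of the 10 genes (x axis, on log2(value + 1), dotted lines at 2-fold) in DOX against control (red) and in DOX+IL-17A against IL-17A (purple). Points are limma estimates, filled where the gene was called, and lines their 95% intervals; the 7 genes from *Bnip3* to *Vegfa* are called in both.

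No effect of IL-17A on these genes passed the test. In DOX+IL-17A against DOX, 0 of 10 were called by limma, voom, edgeR or DESeq2. Limma called 0.438% of all tested genes, and DESeq2, with the most calls, 22 as higher and 71 as lower. By limma 1 of the 10, *Hif1a*, had an unadjusted p under 0.05 (6.35% of tested genes had). *Hif1a* was higher in each of the 3 DOX+IL-17A libraries than in each of the 4 with DOX, by 0.68 ± 0.31 on the log2 scale (95% interval 0.02 to 1.33, adjusted p = 0.76). *Pdk1* was lower in each DOX+IL-17A library than in each DOX library, by a log2 difference of -0.46 ± 0.31 (interval -1.12 to 0.20, adjusted p = 0.979). The other 8 genes overlapped between the 2 groups, and 10.3% of all tested genes did not.

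In IL-17A against control 0 of 10 genes were called by the same 4 tools. Limma called 0.00812% of all tested genes, and DESeq2, with the most calls, 11 as higher and 2 as lower. By limma 1 of the 10, *Slc2a1*, had an unadjusted p under 0.05 (3.08% of tested genes had). *Slc2a1* was the 1 gene of the 10 whose groups did not overlap, being lower in each IL-17A library (adjusted p = 0.959), as against 6.04% of all tested genes in either direction. For *Bnip3* the log2 difference was -0.24 ± 0.27 (interval -0.82 to 0.33), and for *Vegfa* it was 0.13 ± 0.29 (interval -0.48 to 0.75). The intervals were wide, as for *Egln1*, with one of -0.57 to 1.25. DOX+IL-17A against control, which shares the controls of the first comparison, gave the same 7 genes as lower (5.95% of tested genes fell), with log2 values from -1.32 in *Ndrg1* to -2.92 in *Bnip3*.

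The DOX effects with and without IL-17A were compared directly by the interaction term, in which 0 of 10 genes were called at the adjusted p alone (0% of tested genes). It had 1 gene, *Hif1a*, at an unadjusted p under 0.05, and voom, edgeR and DESeq2 called 0 of the 10; over all genes, limma, voom and edgeR called 0 and DESeq2 called 18, and 556 had an unadjusted p under 0.05. The *Hif1a* difference was 1.09 ± 0.45 (interval 0.13 to 2.05, adjusted p = 0.901), and without control replicate 1 it was 0.64 (adjusted p = 1). For *Bnip3* the difference of the 2 effects was -0.05 ± 0.37 (interval -0.84 to 0.73), for *P4ha1* 0.03 ± 0.37 (interval -0.76 to 0.83) and for *Pdk1* -0.74 ± 0.45 (interval -1.71 to 0.22).

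Beside *Hif1a*, *Egln1* and *Egln3*, a list of 12 other genes that make or control HIF was examined. Of these regulators, 10 were listed (*Hif3a* and *Arnt2* were not) and 9 were tested, of which 0 were called by limma, voom, edgeR or DESeq2 in either DOX comparison, with 1 at an unadjusted p under 0.05 in each, the same gene, *Elob*. *Epas1*, the other main alpha subunit, had 0, 7 and 0 reads in controls, 13, 0, 0 and 0 with DOX, 0, 14 and 2 in DOX+IL-17A libraries and 0, 0 and 0 with IL-17A and was not tested. *Elob*, a subunit of the VHL complex, had a log2 difference of 0.75 ± 0.22 in DOX against control (adjusted p = 0.0239), under the 2-fold limit, and 0.58 ± 0.23 on IL-17A (adjusted p = 0.114). The others lay between -0.11 (*Cul2*) and 0.60 (*Eloc*) in DOX against control, with *Arnt* at -0.05, *Vhl* at 0.39, the hydroxylase gene *Egln2* at -0.03, *Hif1an*, which encodes the asparagine hydroxylase FIH, at 0.32, *Cited2*, a competitor of HIF for its coactivator, at 0.22 and *Rbx1* at 0.06. The median over the 9 was 0.22 in DOX against control and -0.02 on IL-17A.

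Among 47 other genes known as HIF targets, 39 were listed. In DOX against control 15 of the 39 fell and 7 rose, beside 6.18% and 9.15% of all tested genes, and in DOX+IL-17A against IL-17A 14 fell and 3 rose, beside 4.92% each way; 13 falls and all 3 rises were shared, and the medians were -0.70 and -0.51. *Adm*, which encodes the vasodilator peptide adrenomedullin, read 13.5, 43.2 and 48.7 in controls, 4.83, 3.18, 2.66 and 3.13 with DOX, 0, 1.19 and 2.43 in DOX+IL-17A libraries and 22.8, 43.7 and 63 with IL-17A, a fall of 7.24-fold in the first comparison (log2 -2.86 ± 0.49, adjusted p = 0.00112). The next largest falls among called genes were in *Pgf*, a relative of *Vegfa* (log2 -1.97), *Plod1*, a collagen lysyl hydroxylase (-1.93), *Zfp395* (-1.84) and the repressor *Bhlhe41* (-1.82), with adjusted p from 0.000743 to 0.00276. *Pgf* was not called on IL-17A, at -0.76 (adjusted p = 0.21).

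The gene that rose most was *Edn1*, which encodes the vasoconstrictor endothelin. Its values were 3.21, 3.23 and 3.54 in controls, 33.1, 37.6, 62.2 and 50.8 with DOX, 95.5, 82.8 and 71 in DOX+IL-17A libraries and 7.55, 7.70 and 6.15 with IL-17A. Every library with DOX was above every library without it, and it rose 10.5-fold (log2 3.40 ± 0.26, adjusted p = 1.89e-06) and, on IL-17A, 10.3-fold (adjusted p = 1.41e-05). *Adm* and *Edn1*, both vasoactive peptides, thus moved in opposite directions.

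Among the other rises in DOX against control were *Angptl4* (log2 2.01), which encodes an inhibitor of lipoprotein lipase, *Loxl2* (1.62), a collagen cross-linking enzyme, and the secreted glycoprotein gene *Stc2* (1.42). None of these 3 was called on IL-17A, where *Angptl4* had an adjusted p of 0.0917, *Loxl2* was at 0.84 (adjusted p = 0.309) and *Stc2* at 1.07 (adjusted p = 0.0742). *Loxl2* and *Stc2* were at 0 in control replicate 1. In controls *Angptl4* had 1 to 12 reads and *Stc2* 0 to 17, in part under the limit of 3 reads, so the size of their rises is uncertain. The *Loxl2* call was lost without control replicate 1, at 0.94 (adjusted p = 0.116), control replicate 5, at 1.68 (adjusted p = 0.0614), or DOX replicates 1, 2 or 4, with adjusted p of 0.0598, 0.0618 and 0.0541.

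The split of the 39 genes changed when single libraries were left out, and so did the calls over all tested genes. In DOX against control 20 fell and 4 rose without control replicate 1, and without DOX replicate 2, 13 fell and 4 rose. Without control replicate 1 and DOX replicate 1 together, 20 fell and 2 rose. Over all tested genes 761 fell and 1127 rose in the main fit of this comparison. Without control replicate 1 these were 750 and 961, without DOX replicate 2 they were 646 and 919, and in the last fit 722 and 901. In DOX+IL-17A against IL-17A 16 fell and 5 rose without control replicate 1, and 7 and 9 fell without IL-17A replicates 3 and 5. Falls over all tested genes went from 606 in the main fit to 777 without control replicate 1. They were 383 and 378 without IL-17A replicates 3 and 5, so the counts of the 39 genes moved the same way as those of all genes here. *Car9*, a carbonic anhydrase gene named after its values were seen, shows the pattern: it read 20.6, 405 and 226 in controls and 46.6, 37.9, 28.2 and 22.1 with DOX, was not called at -1.91 ± 0.74 (adjusted p = 0.0761), and was -3.18 (adjusted p = 0.000239) without control replicate 1.

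Of 15 glycolysis genes, 10 fell and 0 rose in DOX against control, and 11 fell and 0 rose in DOX+IL-17A against IL-17A, where 6.18% and 4.92% of all tested genes fell, with 10 shared and medians of -1.41 and -1.23. The largest falls were those of *Aldoc* (log2 -3.93 ± 0.38, adjusted p = 1.35e-05), *Pfkp* (-2.83 ± 0.32, adjusted p = 4.51e-05) and *Aldoa* (-2.19 ± 0.22, adjusted p = 1.71e-05), 2 aldolases and the platelet form of phosphofructokinase. The median of the 10 HIF genes (-1.33) was near that of glycolysis, and that of the 39 other targets was nearer to 0. Whether the lists differ was not tested.

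**Figure D4:**
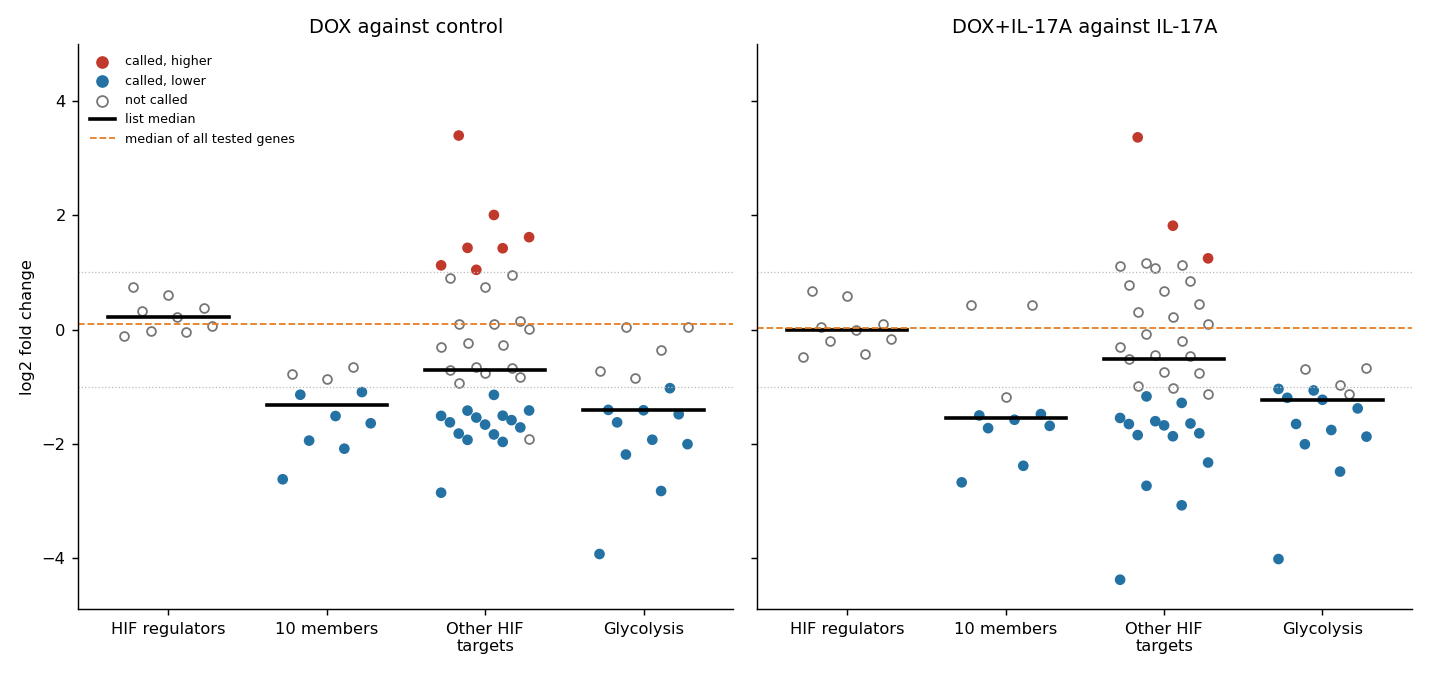
Log2 fold change (y axis) of every tested gene of the 4 lists (x axis) in DOX against control (left) and DOX+IL-17A against IL-17A (right). Points are genes, blue where called lower, red where called higher and open where not called; black bars are list medians, the orange dashed line is the median of all tested genes and dotted lines mark 2-fold.

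Taken library by library, the median of the 10 genes was -0.50 in control replicate 1, 0.13 and 0.38 in control replicates 3 and 5, -0.99 to -1.57 with DOX, -1.25 to -1.61 with DOX+IL-17A, and -0.20, 0.34 and 0.17 in IL-17A replicates 2, 3 and 5, as log2 differences from the mean of the controls. Every library with DOX was below every library without it. Control replicate 1 lay below the other controls in this median and in that of the other targets (-0.59 against 0.24 and 0.32), while in glycolysis it was at -0.07, against -0.01 and 0.23. It was also the control with the highest muscle and red blood cell markers, and its part in the results was given above by leaving it out.

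**Figure D5:**
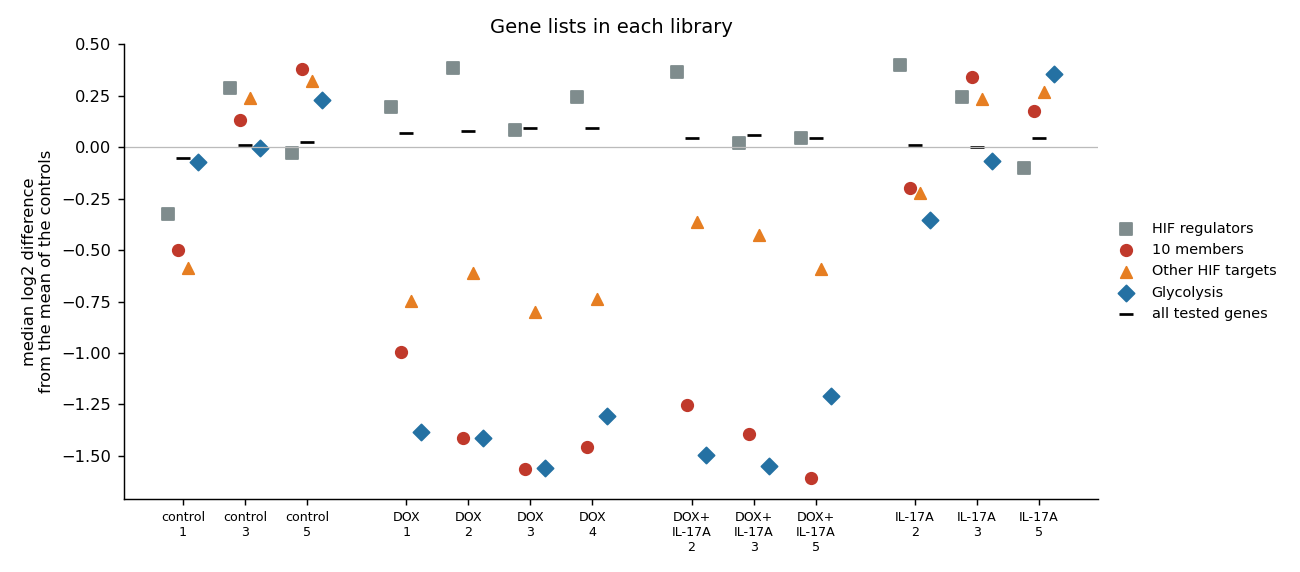
Median log2 difference of each gene list from the mean of the controls (y axis) in each library (x axis, group and replicate number). Markers are lists, and black bars the median of all tested genes; the 10 genes lie between -0.99 and -1.61 in the 7 libraries with DOX and between -0.50 and 0.38 in the 6 without it.

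The genes were also compared by their pattern over the 13 libraries, as the root mean square (RMS) difference of log2 values after centring each gene on its mean. Among the 10, the closest pair was *Vegfa* and *P4ha1* (0.28) and the farthest *Slc2a1* and *Bnip3* (1.40). Among all tested genes, *Pfkp* (0.28) and *Cdk14* (0.32) were closest to *Bnip3*, whose own values had a standard deviation of 1.35 on that scale. *Fam162a* (0.24) and *Man1c1* (0.25) were closest to *Pdk1*, *Etv1* (0.21) and *Pgk1* (0.21) to *Ero1l*, and *Krt19* (0.36) and *Ptprk* (0.37) to *Egln3*. The glycolysis genes *Pfkp* and *Pgk1* and the HIF target *Fam162a* were thus among the nearest of all 12319 genes. Of other genes, *Pcmtd2* (0.23) and *Fndc3a* (0.24) were closest to *P4ha1*, and *Hint3* (0.24) and *Btbd2* (0.25) to *Ndrg1*. All libraries share their depth and treatment across genes, so that these distances are a description.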

How the data were processed

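RNA of 13 libraries was sequenced from transcript 3′ ends in single reads of 75 bases. According to the methods and the submitters' processing notes, the authors used STAR for alignment to mm10, featureCounts for reads per gene and TMM for normalization. The deposited values, a signal per gene, were whole multiples of 1 read in every library (tolerance 0.01), so that reads could be recovered and used in count tests. The strand setting of the counting is not given in the sources used here. Columns of the authors' own fold changes and p-values were not used. Of 13223 entries, 1 was an identical duplicate and was dropped. Genes were filtered on low values with edgeR's filterByExpr, leaving 12319. The main test was limma 3.58.1 with trend on log2(value + 1) over all 13 libraries (R 4.3.3, 9 residual degrees of freedom), with condition only as a term and Benjamini-Hochberg adjustment over all genes tested.

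As the table held normalized values and not counts, limma with trend took the place of voom with limma, which was run on the recovered reads together with edgeR 4.0.16 and DESeq2 1.42.0. The other alternatives were library size scaling, no filter or a mean of 10 reads or more, a pseudocount of 0.1, no 2-fold limit, the compared groups alone, the replicate number as a block, and leaving out each library. The tests were checked on simulated data. Between DOX+IL-17A and IL-17A the 3 pairs of libraries with the same replicate number deviated together from their group means. Their correlations were 0.18, 0.23 and 0.37 over genes with a mean of 10 reads or more. Pairs of other numbers between these groups ran from -0.30 to 0.13, but such pairs reached 0.49 between other groups. The numbers were taken to pair these libraries, from the data and not the labels. The main fit left this pairing out, and the fit with the replicate block included it. The members and gene lists were chosen with earlier results of these data known. All members and HIF regulators were named, with up to 5 called genes each way of the other targets and up to 3 of glycolysis by log2 fold change in DOX against control, and the 2 genes nearest in pattern to each called member; a few results that this rule names are not reported here. Promoters were read and figures drawn in Python 3.11.15.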

Additional observations from a re-analysis of the deposited data

Results flagged for a closer look

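*Slc2a1* in DOX replicate 1 lay far from the other 3 DOX libraries. Its normalized value there was 2.41, from 30 reads, against 1 to 3 reads in the others. The gap to the nearest library was 0.917 of the range of the group, above Dixon's critical value for 4 libraries. Among the 10 genes this was the only library so marked in the DOX group, the only group of 4, and chance marks about 1 in 20 groups. The same library had the highest muscle and red blood cell marker sums, 189.8 and 66.5, and their part in the value was not tested.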

How the results depend on the processing

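In DOX against control the number of genes called among the 10 ranged from 5 to 8 when 1 library was left out and from 5 to 8 under the other settings, and in DOX+IL-17A against IL-17A from 5 to 8 and from 7 to 8. In DOX+IL-17A against control it ranged from 5 to 8 in each, and in the other 3 comparisons it was 0 throughout. *Bnip3*, *Ero1l*, *Pdk1* and *P4ha1* kept their calls without each library in turn, and no log2 fold change of the 10 genes changed sign in the 2 DOX comparisons that share no library. Outside DOX+IL-17A and IL-17A the replicate numbers were not taken as pairs, since groups compared shared at most 2 numbers; over all groups 13 pairs of the same number had a mean correlation of 0.16 (from -0.19 to 0.52) and 50 pairs of other numbers one of -0.04. With the replicate block 6 genes were called in DOX against control, where *Ndrg1* was not (-1.0, adjusted p = 0.109). In DOX+IL-17A against IL-17A 8 were called, where *Egln1* was (adjusted p = 0.0486) and no other call among the 10 changed. In DOX+IL-17A against control 7 were called. Over all tested genes the block fit called 540, 678 and 557 as lower in these comparisons, in place of 761, 606 and 733. DESeq2 called *Egln1* in DOX against control (-1.08, adjusted p = 0.025). Scaling by library size moved the median of all genes from 0.09 to 0.24 in DOX against control and from 0.02 to 0.22 in DOX+IL-17A against IL-17A, with 1516 rises and 488 falls in place of 1127 and 761, and 1017 and 381 in place of 606 and 606. The median of the 10 genes was then -1.15 and -1.32. The fit without control replicate 1 and DOX replicate 1 was chosen after seeing the data.

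The sign changed in the following differences, none of which passed the test above. In DOX+IL-17A against control *Hif1a* was -0.13 by DESeq2, -0.10 by edgeR and -0.24 to 0.47 without 1 library. In DOX+IL-17A against DOX *Slc2a1* was 0.27 with the replicate block, *Egln1* 0.017 by DESeq2 and -0.26 to 0.23 without 1 library, and *P4ha1* -0.27 to 0.15. In IL-17A against control *Ndrg1* was -0.0084 by DESeq2 and -0.070 with the block, and *Egln1* -0.031 with the block. Without 1 library the ranges there were -0.50 to 0.0073 for *Bnip3*, -0.35 to 0.72 for *Egln1*, -0.22 to 0.51 for *Egln3*, -0.14 to 0.39 for *Ero1l*, -0.67 to 0.039 for *Hif1a*, -0.40 to 0.54 for *Ndrg1*, -0.30 to 0.084 for *P4ha1*, -0.22 to 0.55 for *Pdk1* and -0.043 to 0.29 for *Vegfa*. In the difference between the DOX effects *Egln3* was -0.067 with the block, and the ranges were -0.30 to 0.20 for *Bnip3*, -0.77 to 0.30 for *Egln1*, -0.0098 to 0.72 for *Egln3*, -0.021 to 0.51 for *Ero1l*, -0.72 to 0.22 for *Ndrg1* and -0.18 to 0.25 for *P4ha1*. The cause of these changes was not tested. *Slc2a1* had 30 reads at most in a library, and between 1 and 30 within the DOX group.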
